A study of Mus musculus with 10 samples.

Results

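In DamID-seq, a chromatin protein is fused to the bacterial adenine methyltransferase Dam, which methylates nearby GATC sites, and the methylated DNA is amplified and sequenced. The peaks described here were the clustered ones, that is, peaks of the zinc finger protein ZFP266 that lay in loci of 3 or more. Neighbouring peaks of the deposited list were joined where the start of one was less than 5000 bp from the end of the one before it, and loci of at least 3 peaks were kept. The rule gave 697 clustered loci with 2566 peaks, 17.0% of the 15119 peaks in the list. The other peaks were 9336 lone peaks (61.8%), 3212 peaks in 1606 pairs, and 5 peaks at Zfp266 on chromosome 9 that the rule left out. The plasmid carries the Zfp266 sequence, and the signal values of those 5 peaks ran from 5.24 to 8.66, whereas the highest value of a clustered peak was 2.69.

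The list came from mouse embryonic fibroblasts (MEFs) of the 129 strain, taken 48 h after nucleofection. Of the 10 samples, 5 carried the plasmid PGK-mO-Dam, in which Dam is made alone and marks accessible chromatin, and 5 carried PGK-mO-Dam-Zfp266, in which Dam is fused to ZFP266. The PGK promoter drove both constructs, the cells were sorted for expression of the plasmid, and the fusion was an introduced copy in cells that keep their own Zfp266. All samples entered 1 list of peaks of Dam-ZFP266 over Dam only, so no peak has a value per sample. The depth of the samples is unknown and no replicate error could be computed.

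ZFP266 belongs to the KRAB zinc finger proteins, a large mammalian family that reads DNA through arrays of zinc fingers and recruits co-repressors such as TRIM28 through the KRAB domain. Many members of the family bind transposable elements. B1 SINEs are short mouse retrotransposons that descend from 7SL RNA, the RNA of the signal recognition particle. AP-1 is a dimer of FOS and JUN family proteins that binds enhancers of fibroblasts through the motif TGACTCA, which reads TGAGTCA on the other strand.

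The sequences below show what the clustered peaks held. All were read from GRCm38.p6, 5′ to 3′. The first set gives B1 SINEs from 5 of the 6 clustered loci with the most of these elements, each the copy of at least 120 bp that was most like the B1 consensus and lay wholly inside a clustered peak. Capitals mark bases that differ from the consensus or are inserted, and deleted bases are not marked. The consensus was built from copies on chromosome 19 that match 7SL RNA, and it is shown first.
B1 consensus: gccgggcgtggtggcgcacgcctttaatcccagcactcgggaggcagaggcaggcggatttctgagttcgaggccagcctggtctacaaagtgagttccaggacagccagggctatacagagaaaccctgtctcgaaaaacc
Sik3, chr9:46036116-46036257, plus strand: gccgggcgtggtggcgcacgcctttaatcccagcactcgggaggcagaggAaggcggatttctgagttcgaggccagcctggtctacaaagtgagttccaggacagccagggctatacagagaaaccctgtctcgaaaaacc
Ak7 and Papola, chr12:105783534-105783675, minus strand: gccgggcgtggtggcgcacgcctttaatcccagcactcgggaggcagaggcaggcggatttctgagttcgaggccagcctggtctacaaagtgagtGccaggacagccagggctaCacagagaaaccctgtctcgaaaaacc
Gnb1, chr4:155502767-155502906, minus strand: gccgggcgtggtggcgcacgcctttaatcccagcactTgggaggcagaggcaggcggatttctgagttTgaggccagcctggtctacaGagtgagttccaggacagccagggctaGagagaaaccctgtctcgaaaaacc
Ube2n, chr10:95535010-95535147, minus strand: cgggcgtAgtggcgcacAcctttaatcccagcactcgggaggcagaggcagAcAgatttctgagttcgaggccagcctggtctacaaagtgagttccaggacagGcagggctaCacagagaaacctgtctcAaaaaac
Ldb1 and Pprc1, chr19:46052735-46052874, minus strand: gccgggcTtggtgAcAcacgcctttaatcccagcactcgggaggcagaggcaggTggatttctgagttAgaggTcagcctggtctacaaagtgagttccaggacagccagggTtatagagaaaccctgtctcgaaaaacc
The copies carried 1 to 7 marked bases, and their aligned identity to the consensus was 93.7% to 99.3%.

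The second set shows the AP-1 motif, in capitals. The 3 sites of the Trim24 locus, which held the most peaks of any, stood alone, each in a peak of its own, and are given on the strand that reads TGACTCA.
Trim24 site 1, chr6:37882235-37882265, minus strand: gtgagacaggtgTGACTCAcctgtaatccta
Trim24 site 2, chr6:37885899-37885929, minus strand: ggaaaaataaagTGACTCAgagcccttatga
Trim24 site 3, chr6:37894066-37894096, minus strand: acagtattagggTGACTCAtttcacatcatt
In 4 of the 5 loci richest in the motif it was part of tandem repeats. The 3 repeats with the most motifs, those of the loci near Slc28a3 and near Ankrd12 and of the locus in Tmem108, are given on the plus strand.
Near Slc28a3, chr13:58654231-58654417: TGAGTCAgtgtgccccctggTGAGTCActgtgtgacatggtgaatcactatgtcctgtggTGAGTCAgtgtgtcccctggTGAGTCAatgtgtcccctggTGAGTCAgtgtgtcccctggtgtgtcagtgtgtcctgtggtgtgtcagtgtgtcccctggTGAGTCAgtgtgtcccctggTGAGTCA
Near Ankrd12, chr17:65961844-65962024: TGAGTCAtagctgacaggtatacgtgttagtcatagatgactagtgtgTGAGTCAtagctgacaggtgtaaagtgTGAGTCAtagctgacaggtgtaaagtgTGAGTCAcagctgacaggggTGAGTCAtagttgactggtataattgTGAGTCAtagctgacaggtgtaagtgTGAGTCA
Tmem108, chr9:103670737-103670913: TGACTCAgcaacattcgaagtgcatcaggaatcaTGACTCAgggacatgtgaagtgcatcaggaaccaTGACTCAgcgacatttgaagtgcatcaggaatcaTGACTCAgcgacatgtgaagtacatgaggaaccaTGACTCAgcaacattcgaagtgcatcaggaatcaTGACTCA

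Most clustered loci were small. Of the 697 loci, 443 (63.6%) held 3 peaks, 145 held 4 and 58 held 5, and 51 loci held 6 or more, with 367 peaks between them. The median span was 10.5 kb (quartiles 7.83 and 14.1 kb), and the shortest locus spanned 1.79 kb. Peaks covered a median of 64.2% of the span (quartiles 53.8% and 76.1%). Together the loci spanned 8.12 Mb, of which 5.13 Mb lay in peaks.

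**Figure D1:**
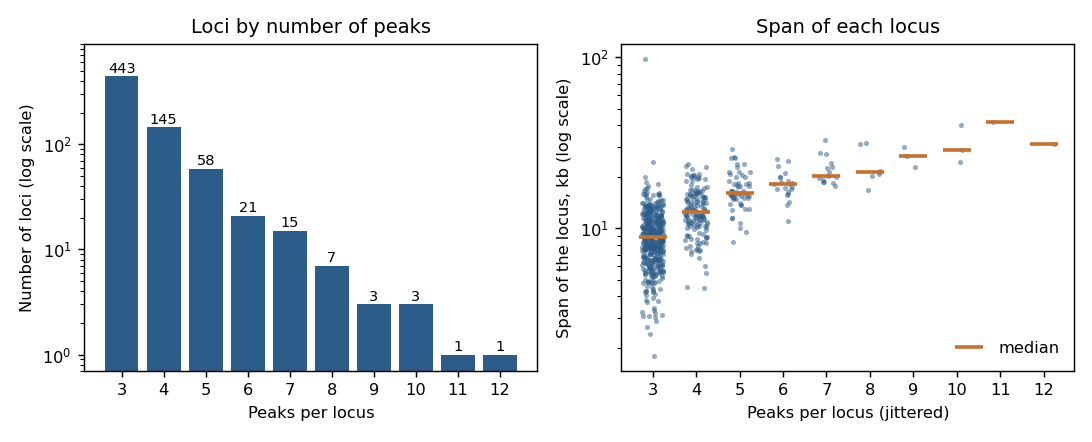
Left, number of clustered loci (log scale) by the number of peaks they hold. Right, span of each locus in kb (log scale) by its number of peaks, 1 point per locus, with the median of each group as a bar. Loci of 3 peaks are the most common (443), and 1 locus of 3 peaks stands at 98.1 kb, far above the others.

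Most of the span of the widest locus was unknown sequence. It lay in Sgms2, which encodes a sphingomyelin synthase, at chr3:131368916-131466986, and held a peak of 93799 bp. Of that peak, 89954 bp (95.9%) were unknown bases of the assembly, and 3845 bp were known sequence. The next widest locus, near Sema3e, spanned 41.9 kb.

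Peaks start and end at GATC sites, because Dam marks only these and reads are counted on the fragments that DpnII cuts there. All 15119 starts and all 15119 ends lay in a GATC. A clustered peak was a run of 1 to 15 DpnII fragments, and 1275 (49.7%) were a single fragment, against 5465 lone peaks (58.5%). The fragments inside clustered peaks had a median length of 766 bp, those in lone peaks 974 bp, and those of the whole genome 260 bp. The peaks of both classes therefore lay on fragments longer than most in the genome.

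The 1869 gaps inside loci looked different. Their median length was 1090 bp (quartiles 360 and 2573 bp), and 893 (47.8%) were under 1000 bp. A gap held a median of 4 DpnII fragments, and 326 gaps (17.4%) were a single fragment. Fragments in gaps had a median of 203 bp, and 66.6% were under 300 bp, against 11.7% of those inside clustered peaks. Of the fragments within 5000 bp of a lone peak, 56.6% were under 300 bp, close to the 54.7% of the whole genome.

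Within loci the share of fragments that lay in a peak rose with their length, apart from the shortest ones. It was 7 of the 2548 fragments of 100 to 199 bp (0.275%), 7.52% at 200 to 299 bp, 60.4% at 500 to 999 bp and 97.8% at 2000 bp and more. Fragments under 100 bp stood at 16.1%. In 606 gaps (32.4%) no fragment reached 300 bp. When such peaks, parted only by fragments under 300 bp, were merged before joining, an alternative chosen after the data were seen, 415 loci of 3 or more remained in place of 697. The count of loci thus depended on whether short fragments part peaks. Whether ZFP266 occupied the short fragments was not tested, since the list has no value for uncalled fragments.

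**Figure D2:**
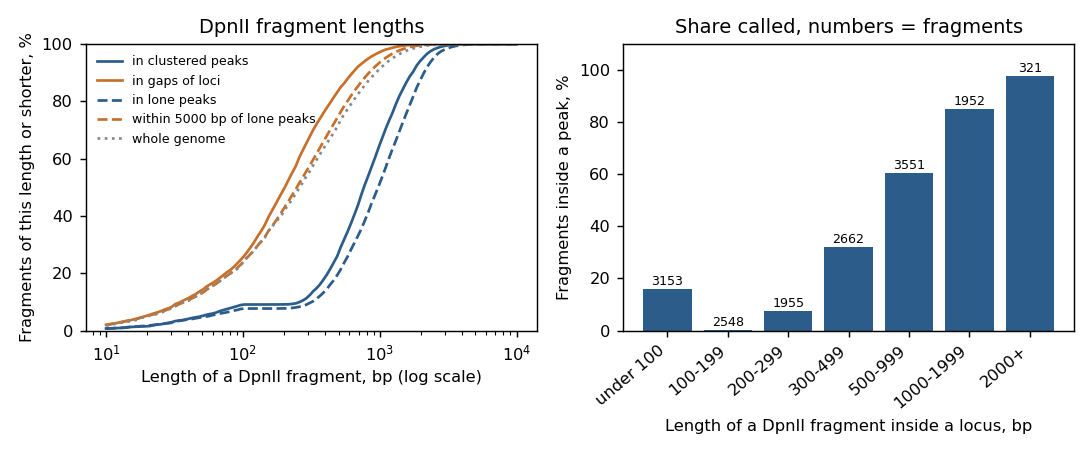
Left, cumulative share (%) of DpnII fragments by length (bp, log scale) in clustered peaks, in the gaps of clustered loci, in lone peaks, within 5000 bp of lone peaks and in the whole genome. Right, share (%) of the fragments inside clustered loci that lay in a peak, by fragment length, with the number of fragments above each bar. Gap fragments are short (median 203 bp) and peak fragments long (median 766 bp), and of fragments of 100 to 199 bp only 0.275% lay in a peak.

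The strength of the peaks belongs to the measurement that defined the clusters, and it is given as a description only. The signal value sets Dam-ZFP266 against Dam only, on a scale that the sources used here do not state. Its median was 0.919 in clustered peaks (quartiles 0.755 and 1.11), 0.900 in pairs and 0.891 in lone peaks (quartiles 0.750 and 1.05). It was 0.911 in loci of 3 peaks and 0.942 in loci of 6 or more. The median −log10 q-value was 1.43 in clustered and 1.29 in lone peaks. A q-value below 0.05 together with a signal value above 1, a stricter cut than that of the list, taken from the example in the methods with the signal value in place of the log2 fold change, was met by 851 clustered peaks (33.2%), 871 peaks in pairs (27.1%) and 2259 lone peaks (24.2%), and by 26.4% of all peaks. The distributions overlapped almost entirely, and clustered peaks were shorter, with a median of 1658 bp against 1817 bp.

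Within a locus the peaks were unequal. The highest and the lowest signal value of a locus differed by a median of 0.439 (quartiles 0.288 and 0.643). In loci of 3, the highest value stood in the left peak 131 times, in the middle peak 173 times and in the right peak 139 times. In loci of 4 or more it stood in an inner peak in 153 of 254 (60.2%), where inner peaks were 58.9% of the peaks. At least 1 peak of the stricter kind was present in 504 loci (72.3%), and 3 or more in 75. With the stricter peaks alone joined anew, 61 loci of 3 or more were left, with 207 peaks, of which 43 loci held 3.

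The locus with the most peaks lay in Trim24, which encodes a chromatin reader and transcriptional cofactor of the same TIF1 family as TRIM28. It held 12 peaks over 31.3 kb at chr6:37871658-37902970, all with their midpoint in an intron. From left to right their signal values were 2.07, 1.08, 1.65, 1.28, 1.09, 0.992, 0.989, 1.48, 1.02, 1.07, 1.24 and 0.955. The first peak was the highest, and all 12 were above the median of clustered peaks. Of these peaks, 5 held a B1 SINE and 3 an AP-1 motif, and none held more than 1 motif. With stricter peaks alone joined anew, the Trim24 locus parted into loci of 5 and 4 peaks.

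The Trim24 locus was also the fifth of 6 clustered loci, with 32 peaks in all, that lay within 1 Mb of chromosome 6, from 37613768 to 38376202. No 1 Mb held more loci, and 2 other stretches, with 23 and 24 peaks, held as many. Of the 4 loci before it, 2 had Trim24 as their nearest gene, at 69.2 kb and 131.6 kb. The other 2 were nearest to Akr1d1, which encodes a steroid reductase, at 44.95 kb and 134.9 kb. The locus 131.6 kb away held 7 peaks over 19.3 kb, with signal values of 1.09, 1.48, 2.42, 1.14, 1.41, 1.08 and 0.746. With stricter peaks alone it still held 6, the most of any locus together with 1 on chromosome 8. The sixth locus stood 5.32 kb from Ttc26, which encodes a component of the intraflagellar transport machinery. Across the genome, neighbouring clustered loci of a chromosome were a median of 1.69 Mb apart, and 69 lay within 50 kb of the next.

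The second locus by number of peaks held 11, over 41.9 kb at chr5:13960494-14002435, between genes and 22.8 kb from Sema3e, a secreted semaphorin that guides axons and vessels. Its signal values were 0.707, 1.01, 0.771, 0.433, 1.04, 0.756, 1.60, 0.991, 0.512, 0.967 and 0.837. The seventh peak was the highest, and the others fell on both sides of the median of clustered peaks. A further locus of 3 peaks met the Sema3e transcript start, where the peak over the promoter had a signal value of 1.60.

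A number of 10 peaks was reached by 3 loci. That of Rapgef2, a guanine nucleotide exchange factor for Rap proteins, spanned 40.05 kb at chr3:79117593-79157639 and crossed a transcript start, with 7 peaks in introns and 3 outside the gene. Its signal values were lower than those of Trim24, with a median of 0.698 and a range from 0.450 to 1.15. That of Lrrfip1, which encodes a nucleic acid binding protein, lay in introns over 28.8 kb at chr1:91006545-91035387. Its signal values ran from 0.612 to 1.29 with a median of 1.02. The third lay between genes at chr7:66575313-66599748, 44.8 kb from Asb7, a substrate receptor of a ubiquitin ligase. It held no B1 SINE and 8 AP-1 motifs, and its signal values ran from 0.596 to 1.63.

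In 3 more loci there were 9 peaks. In Uhrf1bp1l, which encodes a lipid transfer protein, they spanned 30.1 kb at chr10:89740604-89770678, with a median signal value of 0.687. In Sec24b, a subunit of the COPII coat of secretory vesicles, they filled 76.8% of 22.8 kb at chr3:130034845-130057606, with a median of 0.990. The third stood between genes at chr1:71749061-71775605, and its nearest gene, 95.8 kb away, was Fn1, which encodes the matrix protein fibronectin. Its signal values were 0.992, 0.942, 1.14, 0.806, 0.928, 1.02, 0.952, 0.849 and 0.654. The highest and the lowest differed by 0.482, against 0.835 in the Uhrf1bp1l locus and 0.51 in the Sec24b locus, which also held 9 peaks.

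There were 7 loci with 8 peaks, of which 3 overlapped a gene and 4 held a B1 SINE. The 2 with the largest span complete the 10 loci named for their number of peaks. One stood 407.7 kb from Jarid2, a cofactor of Polycomb repressive complex 2, over 31.7 kb at chr13:44291429-44323091. The other stood 299.4 kb from Gpat3, an acyltransferase of glycerolipid synthesis, over 31.2 kb at chr5:101198527-101229718. Neither of this pair held a B1 SINE, and they held 5 and 6 AP-1 motifs.

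**Figure D3:**
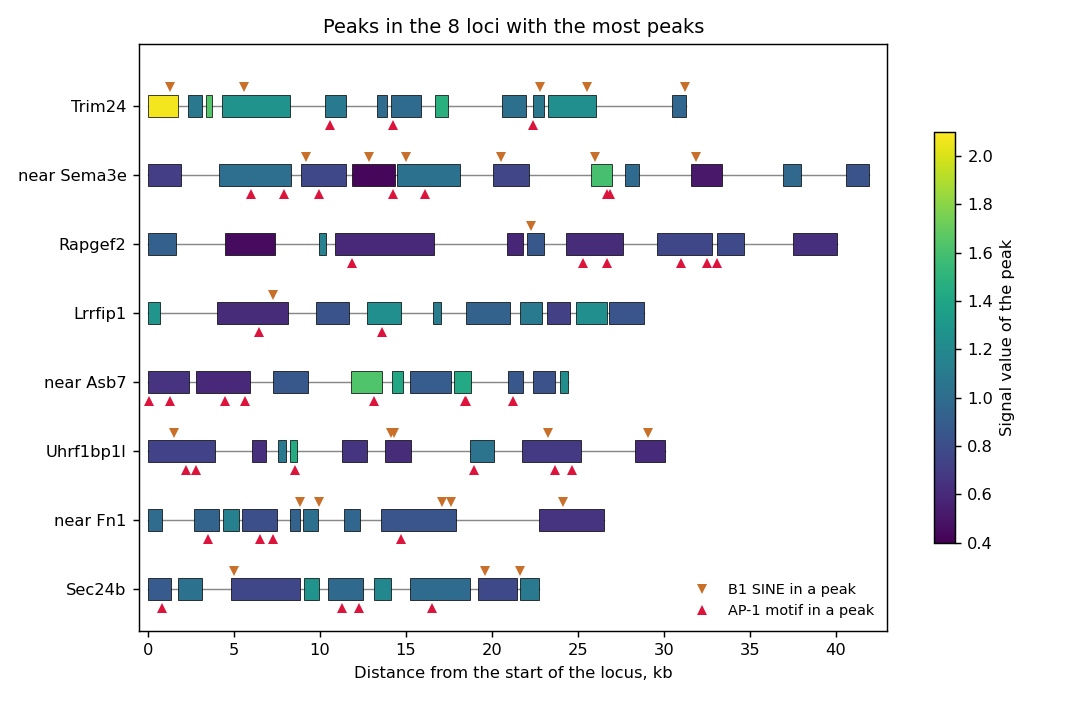
Map of the 8 clustered loci with the most peaks, by distance from the start of each locus in kb. Boxes are peaks coloured by signal value, upper triangles are B1 SINEs and lower triangles AP-1 motifs inside peaks. Trim24 has the most peaks (12), and its first peak has the highest signal value shown (2.07), while B1 SINEs are spread over some loci and absent from the locus near Asb7.

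The highest single peak of the clustered loci had a signal value of 2.69. It stood in a locus of 5 peaks at chr17:29450286-29461750, 29.0 kb from Pim1, which encodes a serine/threonine kinase, in introns of the non-coding gene Gm26885. The values of the 5 peaks were 1.18, 2.69, 1.12, 0.593 and 1.38, and the highest peak alone held 6 B1 SINEs. Next came 5 peaks 103.5 kb from Nxnl2, a thioredoxin-like gene of the retina, at chr13:51278722-51287050, with values of 1.15, 1.55, 1.45, 2.50 and 1.23. All 5 of them passed the median of clustered peaks. The other 3 loci of this kind were the one 131.6 kb from Trim24, a locus of 3 peaks in Rad23b, a gene of nucleotide excision repair, with a highest value of 2.33, and a locus of 5 peaks 180.4 kb from the transcription factor gene Zfhx3, with 2.23. In the Rad23b locus the other peaks stood at 0.591 and 0.385, below the median of clustered peaks.

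Of the 697 loci, 386 (55.4%) overlapped a protein-coding gene and 292 (41.9%) lay wholly inside one. A transcript start was present in 85 loci (12.2%), and 15 loci met more than 1 gene. Since a locus covers its peaks and the gaps between them, these shares cannot be set against those of single peaks. The 311 loci between genes stood a median of 29.4 kb from the nearest gene, 79 within 10 kb and 73 more than 100 kb away.

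By their midpoints, 1300 clustered peaks (50.7%, 95% Wilson interval 48.7% to 52.6%) lay in introns, 1173 (45.7%) between genes, 50 (1.95%) in exons and 43 (1.68%) in promoters, here the 1000 bp before a transcript start and the 100 bp after it. Of the lone peaks, 4106 (44.0%, interval 42.98% to 45.0%) lay in introns, 4774 (51.1%) between genes and 247 (2.65%) in promoters. The share in introns was thus higher in clustered peaks and that in promoters lower. The intervals overlapped in neither case, since that for promoters was 1.25% to 2.25% in clustered and 2.34% to 2.99% in lone peaks. These intervals cover counting error only and treat the peaks of a locus as independent, which they are not, and no test of the difference was made.

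At promoters the data bear on single sequences. Of the genes with a RefSeq promoter window, which runs from 250 bp before to 50 bp after the start, 44 of 16853 had a window that met a clustered peak. Among these 49 windows 3 held an AP-1 motif (6.12%), against 22 of 267 windows (8.24%) that met a lone peak and 4.74% of all 20488 windows. The window of Commd1, a gene of copper metabolism and protein sorting that has the gene Zrsr1 nested inside it, lay wholly in a clustered peak with a signal value of 1.06 and is shown with its motif in capitals. The Zrsr1 window met the neighbouring peak of the same locus, with 1.08.
Commd1 promoter, chr11:22972817-22973116, minus strand: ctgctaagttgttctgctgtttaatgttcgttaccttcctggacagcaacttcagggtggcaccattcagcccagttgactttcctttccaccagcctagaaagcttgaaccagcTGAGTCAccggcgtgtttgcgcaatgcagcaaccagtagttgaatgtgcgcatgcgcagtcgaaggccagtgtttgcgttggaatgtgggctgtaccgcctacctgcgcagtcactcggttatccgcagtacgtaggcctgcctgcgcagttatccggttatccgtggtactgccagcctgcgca
The highest signal value at such a window, 1.79, was that of Cdkn1a, which encodes the cell cycle inhibitor p21 and whose locus held 5 peaks. Commd1, Zrsr1 and Cdkn1a were picked after their values were seen.

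A clustered locus was present in 370 of the 21000 protein-coding genes, which is 1.76% of them. These genes were long, with a median length of 83.9 kb, where genes with lone peaks and no locus had 67.2 kb and all genes 16.7 kb. The share rose from 0.238% in the shortest of 10 equal groups by gene length to 4.14% in the ninth and 7.10% in the longest. Lists of long genes are therefore to be read against these shares as well as against 1.76%.

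Most of these genes held 1 locus, and 27 held more. Smad3, Nrg1 and Utrn were among those that held 3. Smad3, which encodes the signal transducer of TGF-β receptors, is 111.2 kb long, and all 11 of its peaks were clustered. Its loci held 4, 4 and 3 peaks, at chr9:63666929-63679932, chr9:63686578-63709466 and chr9:63716710-63726935, with median signal values of 0.942, 0.682 and 0.824. All were in introns. The 6 AP-1 motifs in these peaks included 2 that were 31 bp apart in the third locus.

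Nrg1 and Utrn were longer and also carried peaks outside loci. Nrg1, which encodes the ERBB receptor ligand neuregulin, had 10 of its 19 peaks in loci. Utrn, which encodes the cytoskeletal protein utrophin, had 9 of 11. The highest signal value in these loci was 1.09 in Nrg1 and 1.05 in Utrn.

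Of 32 extracellular matrix genes, 4 (12.5%) held a clustered locus: Lamc1, Loxl2, Col5a2 and Col4a2. Lamc1, which encodes the laminin γ1 chain, had 8 peaks over 20.1 kb at chr1:153299383-153319527, with signal values of 1.03, 1.82, 0.699, 0.793, 0.636, 0.822, 0.754 and 0.621. Only the first 2 passed the median of clustered peaks. Loxl2, a lysyl oxidase that crosslinks collagen, had 5 peaks with a highest value of 1.45. Col5a2, a chain of fibrillar collagen V, had 3 with values of 0.845, 1.39 and 1.12, and Col4a2, a chain of basement membrane collagen IV, had 3 between 0.559 and 0.730.

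Of 34 genes of TGF-β, WNT and growth factor signalling, 4 (11.8%) held a locus. Beside Smad3 these were Wwtr1, Fgfr1 and Igf1r. Wwtr1, which encodes the Hippo pathway coactivator TAZ, had 2 loci of 7 and 3 peaks with highest values of 1.14 and 1.11. Fgfr1 and Igf1r, receptors of fibroblast growth factors and of insulin-like growth factor 1, had loci of 4 and 3 peaks with highest values of 1.15 and 0.819.

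Of 17 genes of the KRAB zinc finger pathway, 3 (17.6%) held a locus. In Hdac2, a histone deacetylase, the 4 peaks were intronic with a median of 0.878 and held neither a B1 SINE nor an AP-1 motif. In Atf7ip, a partner of the histone methyltransferase SETDB1, there were 4 peaks around the transcript start, with values from 0.767 to 1.10. At Daxx, a chaperone of histone H3.3, 1 of 3 peaks overlapped the gene and its promoter, with 0.898. The list has few genes, so a single gene is a large share of it.

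The other lists were closer to the background or had no locus. Of 36 adhesion and actin genes, 2 (5.56%) held one: Itgav, the integrin αV subunit, with 4 peaks up to 0.844, and Itgb1, the integrin β1 subunit, with 3 peaks of 1.12, 1.14 and 1.45. Foxp1, a forkhead factor, was the only one of 30 fibroblast transcription factor genes, with 3 peaks up to 1.35. No gene held a locus among 16 of the AP-1 family, 25 of pluripotency and 18 of other cell types. The share was 1.76% for all protein-coding genes. It was 0.81% to 1.0% in the length groups that hold the median lengths of these lists. Lists this small may hold none at such shares, so the absence is no result about their genes. With 10 kb added to each side of a gene, where the background was 2.44%, Zeb2 and Klf5 joined.

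The lists and their members were chosen with earlier results of these data known. They differ in gene length, from a median of 8.14 kb for the AP-1 family to 70.3 kb for adhesion and actin. The median was 56.7 kb for extracellular matrix, 65.3 kb for TGF-β, WNT and growth factor signalling and 33.7 kb for the KRAB zinc finger pathway. The part of gene length in their shares was not tested. None of the 10 marker genes of fibroblasts, such as Col1a1, Col3a1, Pdgfra and Twist1, held a clustered locus, although Thy1 had one within 10 kb. Nor did any of the 13 markers of other cell types. Of all protein-coding genes only 1.76% held one, so sets this small may hold none, and the absence is no result about the markers.

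**Figure D4:**
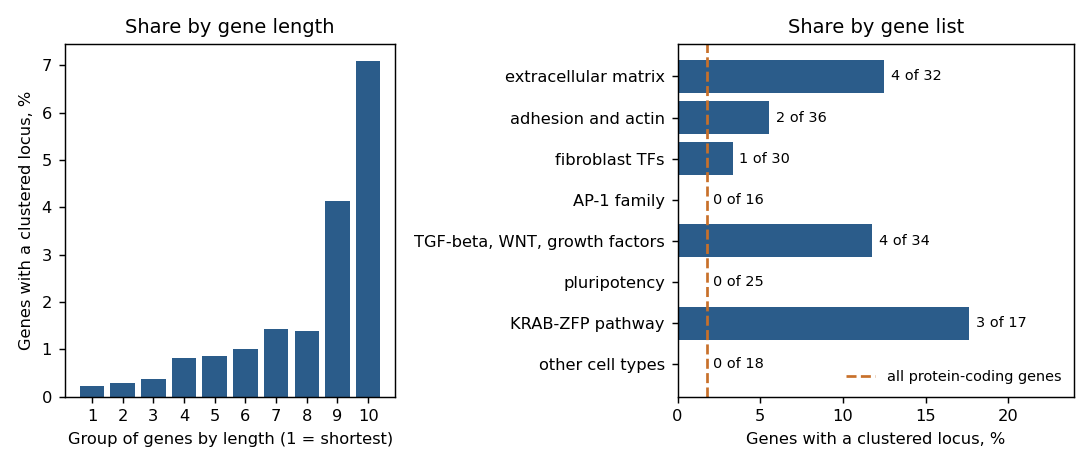
Left, share (%) of protein-coding genes with a clustered locus in each of 10 equal groups of genes by length. Right, share in each of the 8 gene lists, with counts, beside the share of all protein-coding genes (dashed line, 1.76%). The share is 7.10% in the longest group, and 3 lists have no gene with a locus.

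B1 SINEs were found in 840 clustered peaks (32.7%, 95% Wilson interval 30.95% to 34.6%) and in 2834 lone peaks (30.4%, interval 29.4% to 31.3%). The difference of 2.38 percentage points was small, and the intervals overlapped. When lone peaks were weighted to the lengths of clustered ones, their share was 29.6%. In the 5 groups of peak length the clustered share was the higher in each, from 21.1% against 20.8% in the shortest to 44.3% against 42.1% in the longest. The intervals were apart only in the fourth group, at 38.5% (34.4% to 42.8%) against 31.0% (29.2% to 32.9%). Here too the intervals treat the peaks of a locus as independent, and no difference was tested.

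The difference also depended on which elements and which peaks were counted. For elements of at least 100 bp at 85% identity the shares were 23.5% and 23.4%, and in the central 500 bp of each peak 12.7% and 12.01%. With stricter peaks joined anew the direction turned, at 31.4% in 207 clustered peaks and 32.5% in lone ones. It was wider, at 4.35 percentage points, for loci of at least 5 peaks, and 5.29 points against lone peaks with no other peak within 50 kb. Joining distances of 1000 and 10000 bp gave 0.559 and 3.29 points.

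The surroundings of the loci also held more B1 SINEs than those of lone peaks. They made up 2.73% of the bases of clustered peaks, 2.62% of the gaps and 2.17% of the 50 kb on each side, and 2.38% and 1.87% for lone peaks and the 50 kb around them, against 1.17% of the genome. Clustered loci thus stood in regions richer in B1 SINEs, and the part of the regions in the content of the peaks was not tested.

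The 1191 elements in clustered peaks lay on both strands, 571 on the plus and 620 on the minus strand, with a median identity of 90.8% to the consensus. Of the 697 loci, 468 (67.1%) had an element in at least 1 peak, 231 (33.1%) in at least 2 and 37 in all. With at least 3 peaks per locus, these shares cannot be set against the share of single peaks. There were 6 loci with 11 or 12 elements, and the 5 named here leave out the one of smallest span among the 4 with 11. They lay at Ak7 and Papola (a nucleotide kinase and a poly(A) polymerase), in Gnb1 (a G protein β subunit), in Sik3 (a salt-inducible kinase), at Ldb1 and Pprc1 (a cofactor of LIM domain factors and a PGC-1-related coactivator) and in Ube2n (a ubiquitin-conjugating enzyme). In Sik3, 7 of 8 peaks held one, and their signal values ran from 0.622 to 1.32. At Ak7 and Papola all 5 did, with values of 0.492, 0.809, 0.711, 1.20 and 0.916. None of these values was near the highest of clustered peaks.

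AP-1 motifs were found in 1052 clustered peaks (41.0%, interval 39.1% to 42.9%) and in 4231 lone peaks (45.3%, interval 44.3% to 46.3%). The clustered share was 4.32 percentage points below the lone share, and the intervals did not overlap. They treat the peaks of a locus as independent, which they are not, and the difference was not tested. When lone peaks were weighted to the lengths of clustered ones, their share was 43.7%. The part of peak length in the difference was not tested. In the shortest group the shares were 20.9% (17.6% to 24.6%) and 27.3% (24.98% to 29.7%), and in the longest 66.8% and 66.9%. The second group had 31.45% and 34.3%, and the third 36.7% and 41.45%. In the fourth group the clustered share was the higher, at 49.0% against 48.3%. In the central 500 bp they were 15.3% and 15.95%. Against lone peaks with no other peak within 50 kb the clustered share was lower by 7.16 points. With stricter peaks joined anew the direction turned, at 42.0% in clustered and 38.2% in lone peaks.

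**Figure D5:**
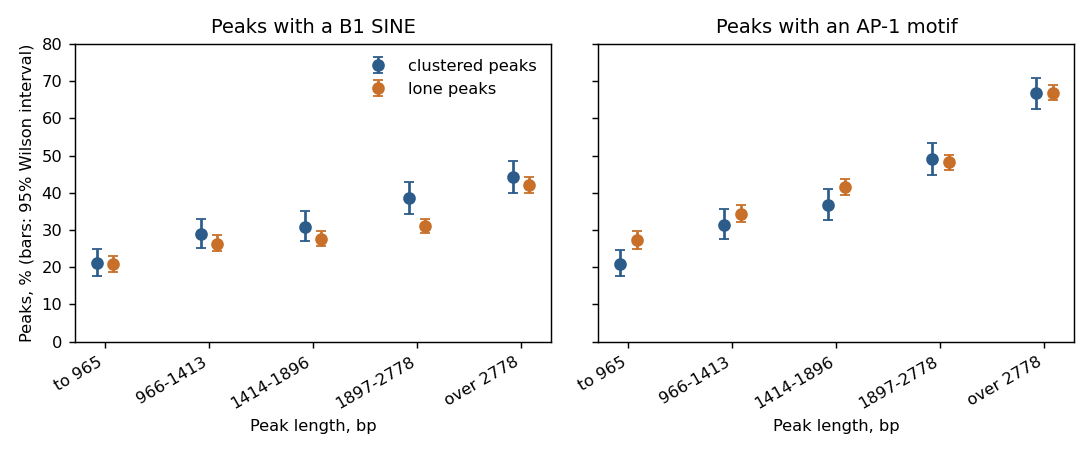
Share (%) of clustered and lone peaks with a B1 SINE (left) and with an AP-1 motif (right) in 5 groups of peak length (bp), with 95% Wilson intervals. Both shares rise with length, and clustered and lone peaks are close in the longest group (44.3% and 42.1% for B1 SINEs, 66.8% and 66.9% for AP-1 motifs).

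Per kb, clustered peaks held 0.325 AP-1 motifs and lone peaks 0.333. The gaps of loci held 0.234, the 5 kb beside loci 0.192 and the genome 0.164, so the motif was denser in peaks and, to a lesser degree, in gaps than in the surroundings. An AP-1 motif was present in some peak of 594 loci (85.2%), and 402 loci (57.7%) had both a motif and a B1 SINE. Neither was present in the peaks of 37 loci (5.31%). A locus has at least 3 peaks, so these shares of loci cannot be set against shares of peaks. By single peaks, 344 clustered peaks (13.4%) held both and 1018 (39.7%) neither, and of lone peaks 13.6% held both and 37.9% neither.

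In 4 of the 5 loci with the most AP-1 motifs, some or all of the motifs lay in tandem repeats. In the locus 36.5 kb from Slc28a3, which encodes a nucleoside transporter, 27 of the 28 motifs lay within 922 bp of a single peak, and 25 of the 26 distances between neighbouring motifs were multiples of 20 bp. That peak had the highest signal value of its locus, 2.07, where the others had 0.995, 1.51 and 0.520. In the locus 2.65 kb from Ankrd12, which encodes an ankyrin repeat cofactor, all 16 motifs lay in 1 peak with a value of 1.61, a median of 27 bp apart. In Tmem108, a transmembrane protein gene, 9 of 13 motifs repeated every 34 bp in the peak of highest value, 1.35. The locus near Eps8l3 held 11 motifs in 4 of 6 peaks, and 3 of them repeated every 22 bp in a peak with a value of 1.09. In the locus near Gm10654, 13 motifs were spread over 3 of 5 peaks. Runs of 5 motifs within 300 bp were seen in 7 clustered peaks (0.273%) and in 24 lone peaks (0.257%), so such runs were rare in both classes.

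Other motifs had near equal shares when lone peaks were weighted to the lengths of clustered ones. GGAATG, the TEAD motif, was in 63.1% of clustered peaks and in 63.9% of lone peaks at clustered lengths, and TGTGGT, the RUNX motif, in 73.1% and 72.4%. KLF motifs, taken as CCACACCC, CCCCGCCC, CCACGCCC or CCCCACCC, were in 40.8% and 40.6%, and TGACGTCA, the CRE motif, in 1.64% and 1.54%. All were searched on both strands. GC content had a median of 43.5% in both classes, and repeats marked in the assembly covered a median of 24.6% of clustered and 24.5% of lone peaks.

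Chromosomes differed in their clustered loci. There were 53 on chromosome 1, the most of any, 5.51 per 100 Mb on X and none on Y, and 18.8 to 39.3 per 100 Mb on the autosomes, with the highest density on chromosome 17. On X, 29 of 351 peaks (8.26%) were clustered, against 11.9% to 20.9% on the autosomes. Peaks of all kinds were also sparser there, at 2.15 per Mb against 5.08 to 7.66.

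At the edge of the rule, on its inner side, 3 peaks at Cldn12, which encodes a claudin of cell junctions, had a largest gap of 4999 bp and a median signal value of 0.934. On the outer side, 3 peaks at Gsr, which encodes glutathione reductase, were parted by 5006 bp and had a median of 1.03. The 5 loci nearest to the limit on the inner side had medians from 0.759 to 1.11, and the 5 sets nearest on the outer side from 0.640 to 1.13.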

How the data were processed

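MEFs of 10 samples in 2 groups of 5 gave 1 deposited peak list, in which replicates are pooled. The authors removed adapters with cutadapt, aligned reads to GRCm38 with BWA, removed mitochondrial and blacklisted reads, counted reads per DpnII fragment and called peaks with Daim. Versions are not given in the sources used here. As an example of a cut the methods name an FDR below 0.05 with a log2 fold change above 1, and the list reaches a q-value of 0.1. The stricter cut uses those numbers, with the signal value for the fold change, and 3986 of 15119 peaks met it. The deposited list holds a score (proportional to the −log10 q-value, at most 1000), a signal value whose scale is not stated, and −log10 p-values and −log10 q-values.

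Fragments followed GATC sites of GRCm38.p6. B1 SINEs were blastn 2.17.0 matches of at least 80 bp and 70% identity to a consensus built with mafft 7.526 from 7SL RNA matches. Shorter or more diverged copies were not counted, in peaks or in the genome, so a peak or locus without a B1 SINE may hold such copies. An overlap of 1 base counted. Motifs were exact matches on both strands. Genes came from curated RefSeq transcripts, with distances to the nearest gene body. Promoter windows are those of RefSeq (GRCm38.p6). Steps ran in Python 3.11.15. The joining of peaks, the overlaps, the motif search and the Wilson intervals were checked on simulated data. Wilson intervals (95%) cover counting error only and treat the peaks of a locus as independent, which they are not. No test was run, since no value per sample was used and peaks are not replicates.

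Named genes are those at, or nearest to, the 10 loci with the most peaks (ties by span), the 5 with the largest span, the most B1 SINEs, the most AP-1 motifs and the highest peak, the loci nearest to the joining limit, genes with the most loci, and list members with a locus. Members and lists were chosen with earlier results of these data known. Alternatives changed the joining distance, the peaks per locus, the peak cut, the B1 definition, the part of the peak searched and the gene annotation. A gene that the rule names is not reported here, and read coverage was not analysed here.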

Additional observations from a re-analysis of the deposited data

How the results depend on the processing

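The counts of loci, of clustered peaks and of genes depended on the rule. With a joining distance of 1000 bp there were 227 loci, 740 peaks and 118 genes, with 2500 bp 440, 1544 and 243, and with 10000 bp 1022 loci, 4057 peaks and 578 genes. At least 4 peaks per locus gave 254, 1237 and 152, and at least 5 gave 109, 657 and 64. Stricter peaks joined anew gave 61, 207 and 28, and merging peaks parted only by fragments under 300 bp, chosen after seeing the data, gave 415 loci and 1451 peaks.

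Of B1 SINE shares in clustered and lone peaks, stricter elements gave 23.5% and 23.4%, whole elements 28.0% and 26.7%, and the central 500 bp 12.7% and 12.01%. At least 5 peaks per locus gave 34.7% for clustered peaks, and among lone peaks the stricter ones gave 32.5% and those with no other within 50 kb 27.4%. For AP-1 motifs the central 500 bp gave 15.3% and 15.95%, and lone peaks stood at 38.2% when stricter, 43.7% when weighted by length and 48.2% with no other within 50 kb. Loci overlapping a gene were 47.5% for stricter peaks and 66.7% with 10 kb added to genes. The median signal value was 0.952 with 1000 bp, 0.937 with at least 5 peaks and 1.23 for stricter peaks, and the median length was 1545, 1604 and 1295 bp with 1000 bp, 2500 bp and stricter peaks. The other 33 of 74 values stayed within their interval or within 1.5 times. The causes were not tested.

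No paired analysis was possible because the list pools all samples. The depth behind each peak is unknown, no replicate was left out, and the values carry no error between replicates.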
